A study of Mus musculus with 79 samples.

Results

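The 9 genes described here are carried by the mitochondrial genome and encode subunits of the respiratory chain: mt-Nd1, mt-Nd2, mt-Nd4 and mt-Nd5 of complex I, mt-Cytb of complex III, mt-Co1, mt-Co2 and mt-Co3 of complex IV, and mt-Atp6 of ATP synthase. They were chosen by symbol from a list drawn up with earlier results of these data known, and are 9 of the 13 mitochondrial rows among the 35230 genes of the deposited table. The others are mt-Nd3, mt-Nd4l, mt-Nd6 and mt-Atp8. All 9 passed the filter on low values (at least 1 RPKM, reads scaled to gene length and library depth, in at least 2 libraries), but mt-Co2 reached 1 RPKM in 51 of 79 libraries, mt-Atp6 in 29 and mt-Co3 in 22. The other 6 genes exceeded it in every library.

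RNA was captured with oligo-dT and sequenced with strand information from 4 mouse lines: one lacking Tet1, Tet2 and Tet3, its parental line, one lacking Dnmt1, Dnmt3a and Dnmt3b, and its parental line. The labels call them TET_KO, TET_WT, DNMT_KO and DNMT_WT, each written below with a space. The parental lines carry none of these knockouts and are separate lines, so a difference between them is not an effect of a knockout. In such a difference the line, its culture and its library preparation cannot be told apart. Embryonic stem cells of each line, grown in 2i/Lif medium, form the starting point ESC D0. From there each line was turned either into epiblast-like cells, sampled after 1 and 2 days (EpiLC D1, EpiLC D2), or into embryoid bodies, sampled after 2, 4, 6 and 8 days (EB D2, D4, D6, D8). Of the 28 groups, 23 held 3 libraries and 5 held 2, namely those of both knockouts at EB D2 and of DNMT WT as ESC D0, at EB D4 and at EpiLC D1. Each genotype was 1 line, and no label says that libraries of a group came from separate cultures, so p-values measure only the spread between these libraries, which may be technical.

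The depth of each library, worked out from the floor of its values, was 7.76 to 13.9 M reads. Of the targeted genes, Dnmt1 stood at 3.63 to 6.49 RPKM in DNMT KO against 10.6 to 63.2 RPKM in the other lines, while Dnmt3a and Dnmt3b ranges overlapped. Tet1 ranges overlapped (2.52 to 13.5 RPKM in TET KO, 2.33 to 26.3 RPKM in TET WT), so whole-gene values do not check those deletions. The pluripotency gene Nanog read 436 to 523 RPKM in all libraries at ESC D0 and 23.1 to 149 RPKM at EpiLC D2. Pou5f1, another pluripotency gene, read 440 to 497 RPKM at ESC D0 and 412 to 818 RPKM at EpiLC D2. The fall of Nanog was thus not shared by all such genes. The formative marker Otx2 read 0.194 to 2.36 RPKM at ESC D0 and 11.4 to 18.0 RPKM at EpiLC D1. Fgf5, a defining formative marker, reached only 0.163 to 1.45 RPKM at EpiLC D1 and 0.815 to 6.58 at EpiLC D2, below its 18.2 to 36.8 RPKM at EB D2. In TET WT at EB D4, replicate 2 carried 12.2% of its reads on the ribosomal RNA locus Gm42418, and replicate 1 at EB D2 carried 2.12%.

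As background, mitochondrial DNA is transcribed by a dedicated polymerase, POLRMT, into long precursors of each strand. These are cut at the tRNAs that lie between most coding genes, and the released mRNAs receive short poly(A) tails in most cases. The mitochondrial proteins are core subunits of complexes I, III and IV and part of the membrane sector of complex V, the ATP synthase, whose catalytic subunits are made from nuclear genes. Many other subunits are nuclear as well. Naive mouse embryonic stem cells use both respiration and glycolysis, whereas primed epiblast cells rely mainly on glycolysis. Nuclear genomes also hold old insertions of mitochondrial DNA, and reads from an identical insertion cannot be told from mitochondrial reads by sequence.

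Sequence divided the 9 genes, so it is shown first. Each was aligned to all nuclear transcripts of GENCODE M21 (GRCm38). The open reading frames of mt-Co2 (chrM:7013-7696), mt-Co3 (chrM:8607-9390) and mt-Atp6 (chrM:7927-8607) each recur in an annotated unprocessed pseudogene on chromosome 1 with no difference: Gm28661 over 681 bases, Gm28437 over 783 bases and Gm10925 over 678 bases. The first 100 bases of each pair are shown because these 3 genes were almost without reads. All stretches below are written 5′ to 3′ on the strand of the gene, with capitals only where gene and pseudogene differ.
mt-Co2: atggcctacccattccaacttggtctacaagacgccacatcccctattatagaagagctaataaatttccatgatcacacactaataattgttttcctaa
Gm28661: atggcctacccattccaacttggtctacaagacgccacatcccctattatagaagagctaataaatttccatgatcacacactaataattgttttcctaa
mt-Co3: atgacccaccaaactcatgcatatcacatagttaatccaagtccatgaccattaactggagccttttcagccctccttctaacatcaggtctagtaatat
Gm28437: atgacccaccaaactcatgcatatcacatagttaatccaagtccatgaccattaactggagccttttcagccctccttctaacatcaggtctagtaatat
mt-Atp6: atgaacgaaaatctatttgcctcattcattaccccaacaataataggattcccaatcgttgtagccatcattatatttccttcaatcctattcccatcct
Gm10925: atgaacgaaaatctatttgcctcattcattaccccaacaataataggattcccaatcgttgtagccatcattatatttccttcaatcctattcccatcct
These pseudogenes lie at chr1:24614885-24615565, chr1:24613189-24613971 and chr1:24613974-24614651, all on the minus strand. They belong to a run of 7 pseudogenes at chr1:24611535-24616197, 4663 bases in all, which follow one another in the order of the mitochondrial genes from mt-Co1 to mt-Nd4.

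The run ends inside mt-Co1 and mt-Nd4, which are therefore copied only in part. Of the 1545 bases of mt-Co1 (chrM:5328-6872), 483 align to Gm29216 with a single difference, A1066T counted from base 1 of the gene, shown in bases 1063 to 1162.
mt-Co1: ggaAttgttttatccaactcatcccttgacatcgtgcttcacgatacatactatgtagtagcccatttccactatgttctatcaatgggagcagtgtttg
Gm29216: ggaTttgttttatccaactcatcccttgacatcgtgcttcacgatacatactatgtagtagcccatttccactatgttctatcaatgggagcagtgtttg
Of the 1378 bases of mt-Nd4 (chrM:10167-11544), 876 recur in Gm28439 without a difference. An older insertion on chromosome 2, Gm13340, covers all 1545 bases of mt-Co1 at 97.6% identity. The remaining 4 genes have no copy at 99% identity or more. The closest copies match mt-Nd2 (chrM:3914-4951) at 96.7% over 510 bases, mt-Nd5 (chrM:11742-13565) at 95.2% over 954 bases and mt-Nd1 (chrM:2751-3707) at 83.6% over 311 bases. For mt-Cytb (chrM:14145-15288), whose copy Gm11410 on chromosome 4 spans nearly the whole gene, 81 of 1142 aligned bases differ, as bases 2 to 101 show.
mt-Cytb: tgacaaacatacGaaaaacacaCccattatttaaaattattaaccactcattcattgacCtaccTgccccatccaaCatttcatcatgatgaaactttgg
Gm11410: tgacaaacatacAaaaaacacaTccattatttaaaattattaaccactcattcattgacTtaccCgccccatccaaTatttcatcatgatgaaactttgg
Of all 50-base windows, 100% of those in mt-Co2, 99.9% in mt-Co3 and 99.5% in mt-Atp6 occur in a nuclear transcript, against 62.2% in mt-Nd4, 51.1% in mt-Co1, 8.19% in mt-Nd2, 7.61% in mt-Nd5 and 0% in mt-Nd1 and mt-Cytb.

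Levels followed the same division. The 6 genes with bases of their own held 7479180 recovered reads over the 79 libraries, and the 3 fully copied genes held 2125, or 0.0284% of the reads on the 9. Median levels were 2769 RPKM for mt-Co1, 1554 for mt-Nd1, 1002 for mt-Cytb, 662 for mt-Nd2, 485 for mt-Nd5 and 338 for mt-Nd4. The fully copied genes stood at 1.59 RPKM (13 reads) for mt-Co2, 0.740 RPKM (6 reads) for mt-Atp6 and 0.486 RPKM (4 reads) for mt-Co3. They had no read in 3, 5 and 6 libraries. mt-Co3, the complex IV subunit beside mt-Atp6, thus sat near the level of a single read, which was worth 0.0919 to 0.164 RPKM. Among the other mitochondrial genes, the fully copied mt-Nd3 and mt-Nd4l were equally low (medians 0.249 and 0.280 RPKM), and mt-Atp8, for which no close transcript copy was found, was low as well (0.562 RPKM). mt-Atp8 is not shown to be uncopied by this. It lies between mt-Co2 and mt-Atp6 and overlaps the latter, and the pseudogenes of these neighbours start as far apart as the genes do. Only annotated transcripts were searched, so sequence between the pseudogenes was not compared. How reads with several alignments were treated upstream is not given in the sources used here. Its part in the low values was not tested. Reads on the pseudogenes are not analysed here.

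**Figure D1:**
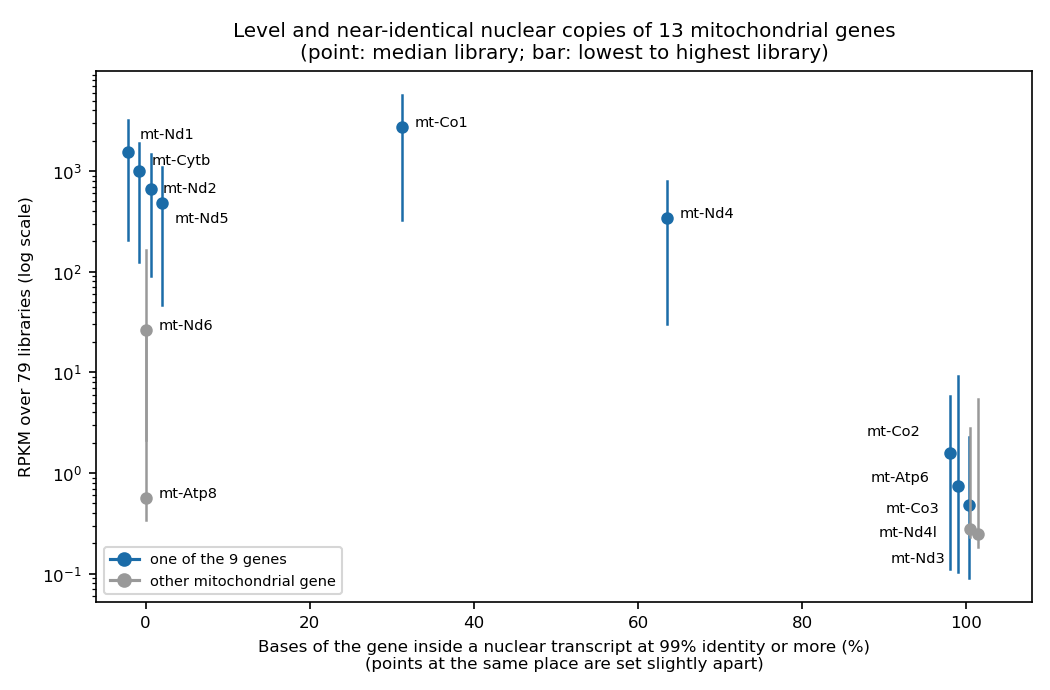
Median RPKM over 79 libraries (vertical axis, log scale, with bars from the lowest to the highest library) against the percentage of each gene's bases that lie in a nuclear transcript at 99% identity or more (horizontal axis), for the 13 mitochondrial genes of the table. mt-Co2, mt-Atp6 and mt-Co3 sit at the right at 0.486 to 1.59 RPKM, and mt-Co1 and mt-Nd4, copied over 31.3% and 63.6% of their bases, at 2769 and 338 RPKM. Only annotated transcripts were searched, so mt-Atp8, which lies between mt-Co2 and mt-Atp6, is drawn without a copy.

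For the partly copied genes the level depends on which bases are taken as countable. Divided by the bases outside the 99% copies, the median of mt-Nd4 would be 927 RPKM and that of mt-Co1 4029 RPKM. Values below are per whole gene, as deposited. Results for mt-Co2, mt-Co3 and mt-Atp6 rest on 0 to 67 reads per library and are given apart.

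The 6 well-counted genes kept nearly the same order in all libraries. mt-Co1 ranked highest and mt-Nd1 next in 75 of 79, mt-Cytb was the third in 77, mt-Nd2 the fourth in 76, mt-Nd5 the fifth in 78 and mt-Nd4 the lowest in 79. Across the 79 libraries Pearson's r between pairs of these genes was 0.907 to 0.990 (15 pairs), and pairs with mt-Co2, mt-Co3 or mt-Atp6 gave 0.349 to 0.804 (21 pairs). The libraries share lines, conditions and scaling, so these values describe the set and test nothing. The genes differed in level and moved together, as the plot of levels by condition shows.

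**Figure D2:**
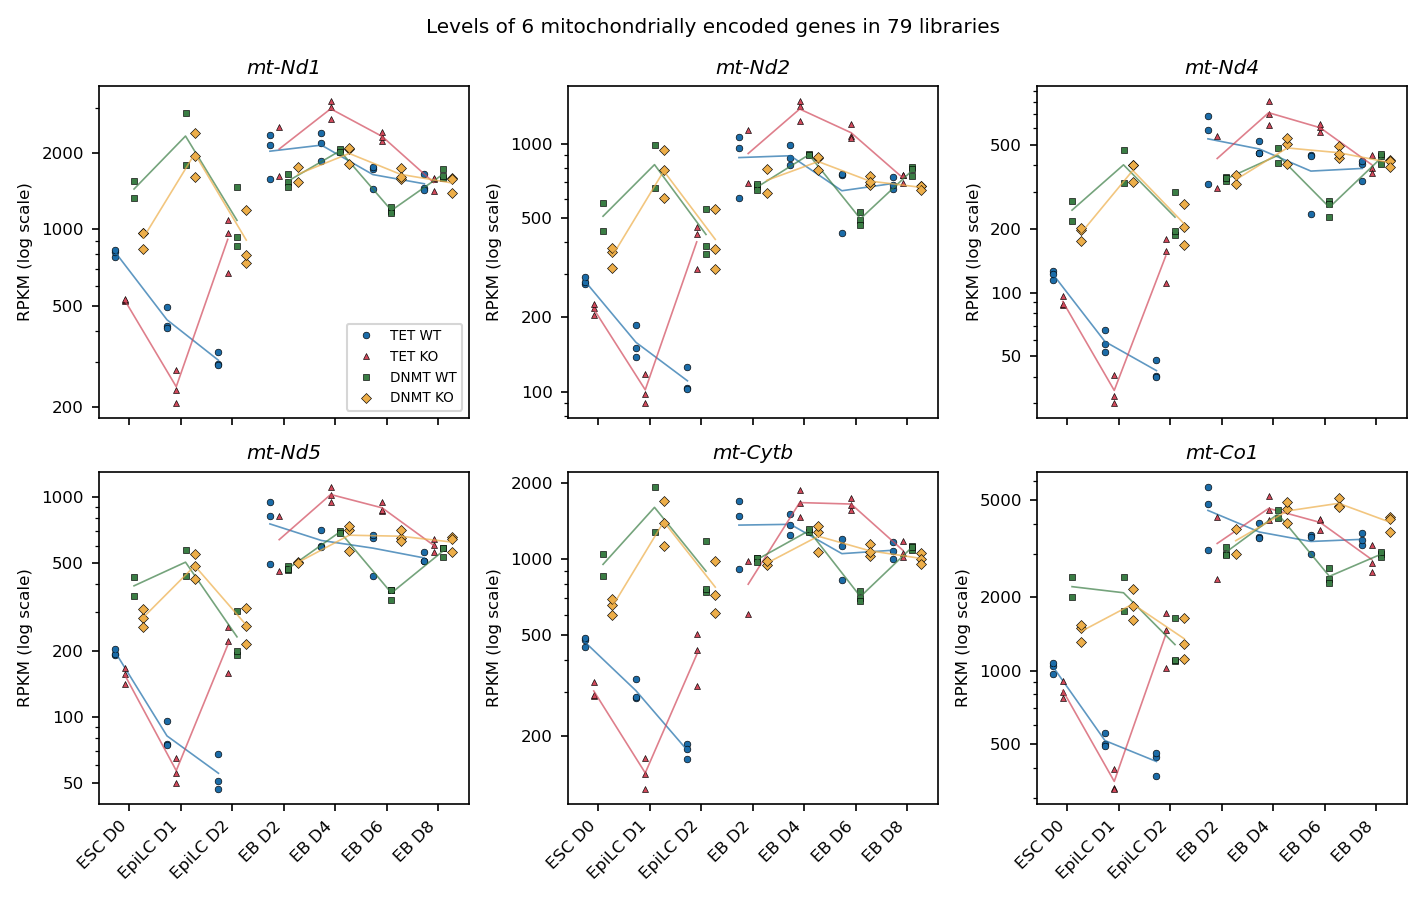
RPKM of the 6 well-counted genes (log scale) in each of 79 libraries, by condition and line; points are libraries, and lines join group means within the EpiLC branch and within the embryoid bodies. TET WT at EpiLC D2 and TET KO at EpiLC D1 lie lowest in every panel, and the 4 lines lie closest together at EB D8 (summed level of 6589 to 8660 RPKM in all libraries).

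The summed level of the 9 genes ran from 930 ± 120 RPKM (SD, n = 3) in TET KO at EpiLC D1 to 12371 ± 1272 (SD, n = 3) in TET KO at EB D4, or 0.108% to 1.79% of the reads of single libraries. The next lowest groups were TET WT at EpiLC D2 (1116 ± 87.0 RPKM), TET WT at EpiLC D1 (1561 ± 157), TET KO at ESC D0 (2121 ± 119) and TET WT at ESC D0 (2912 ± 123). Next highest to TET KO at EB D4 were TET KO at EB D6 (10608 ± 530) and TET WT at EB D2 (10081 ± 2759). Of the 27 neighbouring pairs of groups in this order, 24 overlapped in their libraries. The steps without overlap were those above TET WT at EpiLC D2, above TET WT at EpiLC D1 and above TET KO at ESC D0. Both ends of the order thus belonged to the TET lines, and the DNMT lines stayed between 3163 and 10503 RPKM in all their libraries. In bulk RNA, fewer cells with a high level and less mitochondrial RNA per cell cannot be told apart, and a share of all reads also moves with the rest of the RNA.

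Among the comparisons between lines, the largest differences of the 6 genes lay between the parental lines as EpiLCs. This comparison shows how far the genes differed between libraries of lines that carry no knockout, where line, culture and library preparation cannot be told apart. Calls below need both an adjusted p under 0.05 and a change of 1 or more on the log2 scale, up or down (limma on log2(RPKM + 0.5), a scale that understates changes of low genes, with Benjamini-Hochberg over 15267 genes). At EpiLC D1 all 6 well-counted genes were lower in TET WT than in DNMT WT, where 6.96% of all genes tested were called lower. mt-Nd5, a proton-pumping subunit of complex I, read 95.5, 75.1 and 74.7 RPKM in TET WT against 435 and 574 RPKM in DNMT WT (log2 change -2.61, SE 0.16, adjusted p = 6.89e-07). mt-Cytb, the cytochrome b of complex III, read 338, 284 and 286 RPKM against 1274 and 1920 RPKM (-2.37, SE 0.20, adjusted p = 4.5e-06). mt-Co1, the catalytic subunit of complex IV, read 557, 500 and 493 RPKM against 1754 and 2412 RPKM (-1.99, SE 0.15, adjusted p = 2.36e-06). No library of TET WT reached a library of DNMT WT in any of the 6 genes, which held for 32.6% of all genes tested. mt-Nd4 had the largest change at -2.75 (SE 0.17), and mt-Nd1 and mt-Nd2 both stood at -2.36 (SE 0.21).

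At EpiLC D2 the same 6 genes were called lower again, beside 12.5% of all genes. mt-Nd1, which anchors the arm of complex I in the membrane, read 294, 293 and 330 RPKM in TET WT against 1462, 858 and 932 RPKM in DNMT WT (log2 change -1.79, SE 0.23, adjusted p = 2.14e-05, limma). mt-Cytb read 163, 187 and 178 RPKM against 1180, 744 and 762 RPKM (-2.31, SE 0.21, adjusted p = 1.55e-06, limma). The groups did not overlap in any of the 6, as in 35.8% of all genes with TET WT lower, although DNMT WT replicate 1 stood above its other replicates in each of the 6 genes. Changes of mt-Nd2, mt-Nd4, mt-Nd5 and mt-Co1 were -1.93, -2.37, -2.04 and -1.57. At ESC D0, mt-Nd4, mt-Nd5, mt-Cytb and mt-Co1 were called lower in TET WT (-1.01, -1.0, -1.0 and -1.09, beside 4.66% of all genes), and mt-Nd1 and mt-Nd2 passed the adjusted p only (-0.83 and -0.85). DNMT WT had 2 libraries there, and without its replicate 1 none of the 9 was called. Without replicate 1 of TET WT, 1 was. In embryoid bodies the 6 genes were not called between the parental lines on any day, and at EB D8 none of the 9 was (2.44% of all genes in either direction).

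The 3 sparse genes had other calls. mt-Co2, mt-Co3 and mt-Atp6 gave -1.15, 0.20 and 0.33 between the parental lines at EpiLC D1 and were not called there or at EpiLC D2. They were the ones called in embryoid bodies: mt-Co3 was higher in TET WT at EB D2 (1.4, beside 2.68% of all genes called higher) and EB D6 (1.34, beside 0.779%), and mt-Atp6 at EB D4 (1.42, beside 1.02%) and EB D6 (1.38). mt-Co3 read 1.09, 1.58 and 0.759 RPKM in TET WT at EB D2 against 0.111, 0.122 and 0.102 in DNMT WT, or at most 1 read in the latter. These levels rest on a few reads.

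Loss of the TET enzymes was examined against TET WT at each condition. As EpiLCs the knockout lay below its parent on day 1 and above it on day 2, and the difference between these days was not tested directly. At EpiLC D2, 7 of the 9 genes were higher in TET KO, beside 4.8% of all genes called higher. mt-Nd5 read 157, 222 and 257 RPKM in TET KO against 51.3, 47.1 and 67.6 in TET WT (log2 change 1.92, SE 0.22, adjusted p = 3.3e-05, limma). mt-Nd2 read 312, 432 and 463 RPKM against 104, 103 and 126 (1.84, SE 0.21, adjusted p = 3.58e-05, limma). mt-Co1 read 1025, 1466 and 1717 RPKM against 445, 370 and 459 (1.7, SE 0.21, adjusted p = 5.05e-05, limma). Every TET KO library lay above every TET WT library in the 6 genes, as in 27.9% of all genes, and replicate 1 of TET KO was its lowest in all 6 genes. mt-Nd4 changed by 1.76, mt-Nd1 by 1.55 and mt-Cytb by 1.23, the smallest of the 6. mt-Atp6 was called at 1.2 (SE 0.36, adjusted p = 0.0194, limma) from 0.935, 0.558 and 1.41 RPKM against 0.129, 0.136 and 0.120, the last being 1, 1 and 0 reads. mt-Co2 (0.80) and mt-Co3 (0.58) were not called.

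At EpiLC D1 only mt-Cytb was called, lower at -1.08 (SE 0.18, adjusted p = 0.00053, limma), beside 3.28% of all genes. It read 164, 142 and 124 RPKM in TET KO against 338, 284 and 286 in TET WT. The call was lost without TET WT replicate 1 or TET KO replicate 3. The other well-counted genes passed the adjusted p with smaller changes (28.5% of all genes were lower by that measure), mt-Nd1 at -0.88, mt-Nd4 at -0.76, mt-Nd2 at -0.63, mt-Co1 at -0.56 and mt-Nd5 at -0.52, and their libraries did not overlap, as in 33.5% of all genes with TET KO lower. At ESC D0 the 6 genes were also below TET WT without a call, from -0.31 for mt-Co1 to -0.65 for mt-Cytb, with adjusted p of 2.08e-05 to 0.0101 (limma). Of all genes, 6.78% were called in either direction there and 18.4% were lower by the adjusted p alone. mt-Cytb read 289, 290 and 327 RPKM there against 449, 480 and 487.

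**Figure D3:**
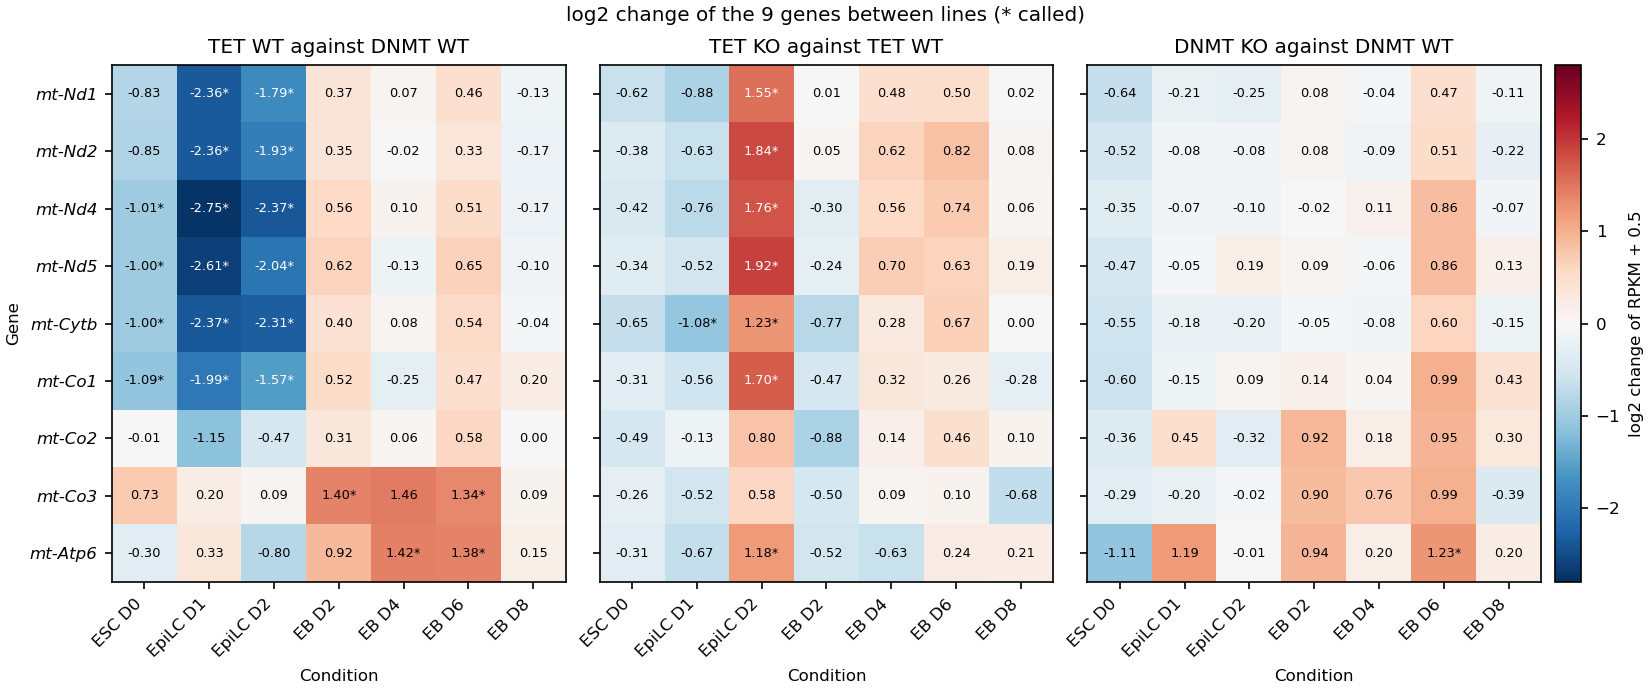
log2 change of each of the 9 genes between TET WT and DNMT WT, TET KO and TET WT, and DNMT KO and DNMT WT at the 7 conditions, on the log2(RPKM + 0.5) scale, with an asterisk where a gene was called. At EpiLC D2 the 6 upper rows are lower in TET WT than in DNMT WT (-1.57 to -2.37) and higher in TET KO than in TET WT (1.23 to 1.92).

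In embryoid bodies none of the 9 genes was called between TET KO and TET WT, where 7.41%, 9.47%, 5.02% and 9.98% of all genes were called in either direction at EB D2, D4, D6 and D8. At EB D4, mt-Nd1, mt-Nd2, mt-Nd4 and mt-Nd5 passed the adjusted p at 0.48, 0.62, 0.56 and 0.70, beside a median of 0.19 over all genes tested, and mt-Atp6 passed it in the other direction at -0.63, with overlapping libraries. mt-Nd5 read 1019, 1109 and 949 RPKM in TET KO against 600.5, 592 and 708 in TET WT. At EB D6 all 6 genes passed the adjusted p without a call, from 0.26 for mt-Co1 to 0.82 for mt-Nd2, as did 28.1% of all genes in that direction. At EB D8, mt-Nd5 (0.19) and mt-Co1 (-0.28) passed the adjusted p in opposite directions, beside a median of 0.11 over all genes. At EB D2 mt-Cytb alone did (-0.77, adjusted p = 0.0404, limma), from 608 and 982 RPKM in the 2 libraries of TET KO against 1695, 911 and 1472, which overlap. For EB D2, EB D4 and EB D8 the share of all genes past the adjusted p is not given here, so these passes do not set the genes apart from the rest.

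The loss of the DNA methyltransferases was examined in the same way, against DNMT WT. In ESCs the 6 genes were below the parent without a call, at -0.64 for mt-Nd1, -0.60 for mt-Co1, -0.55 for mt-Cytb, -0.52 for mt-Nd2, -0.47 for mt-Nd5 and -0.35 for mt-Nd4, each with an adjusted p under the threshold (0.000336 to 0.0244, limma). Of all genes, 1.03% were called in either direction and 7.89% were lower by the adjusted p alone. mt-Nd1 read 970, 839 and 965 RPKM in DNMT KO against 1554 and 1324 in DNMT WT. As EpiLCs the lines overlapped in all 9 genes on both days, while 35.2% and 32.5% of all genes did not overlap at EpiLC D1 and D2. The changes of the 6 ran from -0.21 to -0.05 at EpiLC D1 and from -0.25 to 0.19 at EpiLC D2, where 0.95% and 1.59% of all genes were called in either direction. The difference between both knockout effects at EpiLC D2 was itself called in all 6 (DNMT KO effect minus TET KO effect, -1.43 for mt-Cytb to -1.92 for mt-Nd2, beside 5.97% of all genes called lower). At ESC D0 that difference was -0.29 to 0.10 in the 6 genes, with adjusted p of 0.1 to 0.937 (limma), beside 7.95% of all genes called in either direction.

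At EB D6 the DNMT KO line stood above its parent in all 9 genes, without overlap of libraries in any of them, as did 39.6% of all genes tested. Only mt-Atp6 was called (1.23, SE 0.36, adjusted p = 0.00998, limma), beside 11.1% of all genes called higher, and it read 4.65, 1.13 and 1.02 RPKM in DNMT KO against 0.655, 0.341 and 0.522. mt-Co1 read 4732, 5103 and 4684 RPKM against 2642, 2374 and 2279 (0.99, SE 0.07, adjusted p = 9.68e-08, limma), just under the size asked of a call. mt-Nd4 and mt-Nd5 both stood at 0.86, mt-Cytb at 0.60, mt-Nd2 at 0.51 and mt-Nd1 at 0.47. mt-Co3, at 1.07, 0.978 and 0.883 RPKM against 0.341, 0.296 and 0.113, and mt-Co2 gave 0.99 and 0.95. All 9 passed the adjusted p, as did 34.6% of all genes in that direction. With each replicate left out in turn, 1 to 3 of the 9 were called. By EB D8 the change of mt-Co1 was 0.43 (adjusted p = 0.000299, limma) and that of the other well-counted genes -0.22 to 0.13, with mt-Nd2 (-0.22) and mt-Cytb (-0.15) past the adjusted p, beside 18.9% of all genes called in either direction. The share of all genes past the adjusted p alone is not given for EB D8. At EB D2 and EB D4 none of the 9 was called between DNMT KO and DNMT WT, beside 1.14% and 5.82% of all genes in either direction.

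The knockout effects were also set against the effect of the same knockout at ESC D0. The DNMT KO effect at EB D6 exceeded that at ESC D0 in all 9 genes, beside 12.1% of all genes called higher. The 6 well-counted genes stood at 1.03 (mt-Nd2) to 1.60. The sparse mt-Atp6 gave 2.33, from 34, 8 and 7 reads in DNMT KO against 5, 3 and 4 at EB D6. At ESC D0 it held 6, 0 and 2 reads against 4 and 23. Without DNMT WT replicate 1 at ESC D0, 5 of the 9 were called. At EB D8 the DNMT KO effect exceeded that at ESC D0 in mt-Co1 (1.04, beside 10.8%). The TET KO effect exceeded that at ESC D0 in mt-Nd1, mt-Nd2 and mt-Nd5 at EB D4 (1.10, 1.0 and 1.04, beside 6.54%) and in mt-Nd1, mt-Nd2, mt-Nd4 and mt-Cytb at EB D6 (1.12, 1.19, 1.15 and 1.31, beside 4.29%). The calls at EB D4 were lost without TET WT replicate 2, the library rich in Gm42418, and 1 gene was called without TET WT replicate 1 or TET KO replicate 2 of that day, or without TET KO replicate 1 of ESC D0. At EB D2 both knockout effects differed in the 3 sparse genes, mt-Co2 (1.80), mt-Co3 (1.4) and mt-Atp6 (1.46), beside 4.45% of all genes called higher. Without TET KO replicate 1 there were 0 calls, and without TET WT replicate 1, DNMT WT replicate 1 or 3, or DNMT KO replicate 3 there was 1.

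The course of differentiation was read against ESC D0 of the same line. These comparisons share the ESC D0 libraries of a line, so the values of a line are set side by side and not counted as repeats. In TET WT genes were called lower on both EpiLC days, and in TET KO on the first only. In TET WT, mt-Nd4 and mt-Nd5 were lower at EpiLC D1 (-1.05 and -1.26, beside 7.43% of all genes called lower). At EpiLC D2, 8 of the 9 were lower, beside 15.8% of all genes. Among the well-counted genes these were mt-Nd5 at -1.83, mt-Nd4 at -1.49, mt-Cytb at -1.42, mt-Nd1 at -1.41, mt-Nd2 at -1.34 and mt-Co1 at -1.28. The others were sparse. mt-Atp6 stood at -1.23, from 1, 1 and 0 reads against 0, 8 and 22, which overlap. mt-Co3 stood at -1.08, from 2, 1 and 1 reads against 13, 9 and 3. With each library left out in turn, 6 to 7 of the 9 were called. In TET KO the 6 well-counted genes were lower at EpiLC D1 (-1.08 for mt-Cytb and mt-Nd2 to -1.44 for mt-Nd5, beside 14.3%), of which 2 were called after each library was centred on its median. At EpiLC D2 none was called, and the 6 lay above ESC D0 by 0.43 to 0.88 with an adjusted p under the threshold (28.5% of all genes were called in either direction, and 29.2% were higher by the adjusted p alone). Centred libraries gave 4 calls there. The difference between the knockout effects at EpiLC D2 and ESC D0 was called in all 6 genes (1.87 for mt-Cytb to 2.26 for mt-Nd5, beside 3.22% of all genes called higher).

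As embryoid bodies, TET WT had 6 of the 9 genes higher at EB D2, D4 and D6 and 5 at EB D8, beside 7.87%, 10.7%, 16% and 20.3% of all genes called higher. mt-Co1 read 966, 1045 and 1078 RPKM in ESCs, 5642, 3111 and 4826 at EB D2 (log2 change 2.09, SE 0.19), and 3271, 3420 and 3649 at EB D8 (1.74, SE 0.09). The rise was present on the first embryoid body day sampled. TET KO had 6, 7, 8 and 7 genes higher on the 4 days, beside 7.9%, 12.6%, 14.9% and 18.4%. Counts above 6 include sparse genes, whose values rest on few reads. Its group means at EB D4 were the highest of the study in mt-Nd1 (3009, 3187 and 2720 RPKM, 2.49 above ESC D0) and mt-Nd2 (1421, 1483 and 1230 RPKM, 2.67 above). mt-Nd4 changed most, by 2.95 (SE 0.11).

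DNMT WT had no called gene among the 9 at any condition, where 12.2% and 16.6% of all genes were called in either direction at EpiLC D1 and D2 and 19.7%, 24.8%, 32.1% and 37.7% at EB D2, D4, D6 and D8. Its 6 well-counted genes lay between -0.81 (mt-Co1 at EpiLC D2) and 0.99 (mt-Co1 at EB D4). At EpiLC D1, mt-Nd1, mt-Nd2, mt-Nd4 and mt-Cytb passed the adjusted p at 0.66 to 0.72, while mt-Co1 did not (-0.09). The median over all genes was -0.0023, and the share of all genes past the adjusted p is not given here. DNMT KO had mt-Nd1, mt-Nd2 and mt-Cytb higher at EpiLC D1 (1.08, 1.12 and 1.09, beside 6.35% of all genes called higher), with 0 to 5 calls when a replicate was left out in turn and 0 without its replicate 1 at EpiLC D1. On the same day mt-Co1 stood at 0.36. At EpiLC D2 none of the 9 was called in DNMT KO, beside 15.2% of all genes in either direction. In DNMT KO embryoid bodies 4, 6, 7 and 4 of the 9 were higher at EB D2, D4, D6 and D8, beside 11.4%, 13.5%, 15.1% and 16.8%, and mt-Co1 and mt-Co2 were called on every day. mt-Co1 read 1491, 1315 and 1538 RPKM in its ESCs and 4263, 4185 and 3695 RPKM at EB D8 (1.48, SE 0.09).

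Because the 6 genes moved together, their ratios within a library show where they did not. These ratios are descriptions of single libraries and are free of the scaling of the library. mt-Co1 over mt-Nd1 ran from 0.844 to 2.99. It was 1.24 to 1.7 in ESCs of all lines, 0.844 to 1.01 in the 5 DNMT WT and DNMT KO libraries at EpiLC D1, and 1.47 to 2.99 in embryoid bodies. The highest values were those of DNMT KO at EB D6 (2.95 ± 0.0409, SD, n = 3) and EB D8 (2.66 ± 0.0235, n = 3), against 2.05 ± 0.163 and 1.82 ± 0.112 in DNMT WT (n = 3 each). No DNMT WT library reached a DNMT KO library on these days. TET KO embryoid bodies lay below TET WT at EB D2 (1.47 and 1.69 against 1.98 to 2.40), EB D6 (1.7 to 1.80 against 2.02 to 2.09) and EB D8 (1.76 to 2.04 against 2.21 to 2.40).

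mt-Cytb over mt-Nd1 was lowest in TET KO at EB D2 (0.377 and 0.390) and EpiLC D2 (0.450 to 0.468), where TET WT gave 0.579 to 0.721 and 0.538 to 0.638. It was highest in the DNMT lines at EpiLC D2 (0.807 to 0.914). Of the coding genes on their strand mt-Nd1 is the first and mt-Cytb the last, and neither has a copy at 99% identity. mt-Nd6, the only coding gene of the other strand, was set against mt-Nd5, which it overlaps at its end. The ratio was 0.0592 to 0.103 in the ESCs of the TET lines and 0.0214 to 0.0346 in those of the DNMT lines, 0.0655 to 0.159 and 0.00456 to 0.029 in EpiLCs, and 0.0249 to 0.241 and 0.0369 to 0.0894 in embryoid bodies. The TET and DNMT lines did not overlap in ESCs or in EpiLCs and did in embryoid bodies. In EpiLCs of the DNMT lines mt-Nd6 held only 12 to 58 reads per library. The part of oligo-dT capture in this ratio was not tested.

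**Figure D4:**
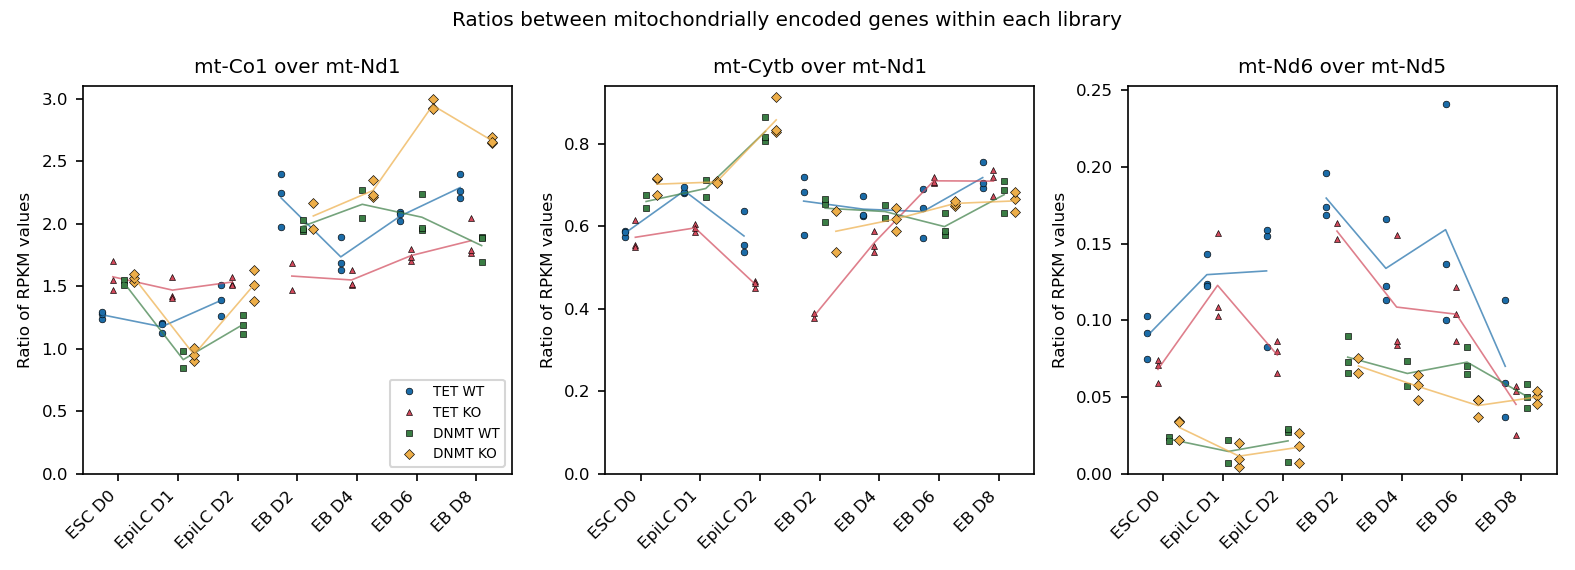
Ratios of RPKM between mitochondrial genes within each of 79 libraries, by condition and line; points are libraries and lines join group means within a branch. mt-Co1 over mt-Nd1 is lowest in the DNMT lines at EpiLC D1 (0.844 to 1.01) and highest in DNMT KO at EB D6 (2.92 to 2.99), and mt-Nd6 over mt-Nd5 separates the TET from the DNMT lines in ESCs and EpiLCs.

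Nuclear subunits of the same complexes were called in the other direction or not at all in the comparisons given next. Between the parental lines at EpiLC D2, where the mitochondrial genes were lower in TET WT, 9 of 26 nuclear subunits of complexes I, III, IV and V were higher and 0 lower, beside 10.2% of all genes called higher. Their median was 0.68, that of the 9 mitochondrial genes -1.79 and that of all genes -0.03. Complex IV subunits changed most, with Cox7a2 at 2.24, Cox7c at 2.23, Cox6b1 at 1.67 and Cox7b at 1.65. Cox7a2 was at 180 ± 16 RPKM in TET WT and 38.8 ± 11 in DNMT WT (SD, n = 3 each). Short subunits of this kind have processed pseudogenes, whose part was not tested. Nuclear genes of the lengths of the 9 (681 to 1824 bases, 2117 genes) had a median change of 0.21, and those of their GC content (35.6% to 39.9%, 787 genes) of 0.28. Over the 7 comparisons in which such genes were summarised, these medians ran from -0.01 to 0.32. The part of length and GC content in the results was not tested.

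Genes that transcribe and maintain mitochondrial DNA changed in both directions there, in shares to be set against 10.2% of all genes called higher and 12.5% lower. Of 20, 1 was higher and 3 were lower: Polrmt, the mitochondrial RNA polymerase, at -1.79 (2.33 ± 0.28 RPKM in TET WT, 9.25 ± 0.72 in DNMT WT, n = 3 each), Polg, the DNA polymerase, at -1.27, Twnk, the helicase, at -1.04, and Tefm, an elongation factor, at 1.64. Among 20 genes of mitochondrial RNA processing and stability, 2 were higher and 3 lower, near the same shares of all genes, among them Elac2, which cuts the 3′ ends of tRNAs (-1.78), Hsd17b10, a subunit of the enzyme that cuts their 5′ ends (1.64), Tbrg4 (-1.40) and Lrpprc, which stabilises mitochondrial mRNA (-1.10). Of 7 biogenesis regulators 2 were lower, the coactivators Pprc1 (-2.0) and Ppargc1b (-1.46). In the list for mitochondrial and integrated stress, 6 of 16 were higher and 1 lower, led by the transcription factor Atf4 (2.81) and Trib3 (2.35), Psat1 (1.88) and Chac1 (1.86), which it is known to activate. These lists were drawn up with earlier results of the data known, and no test of a list was made.

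**Figure D5:**
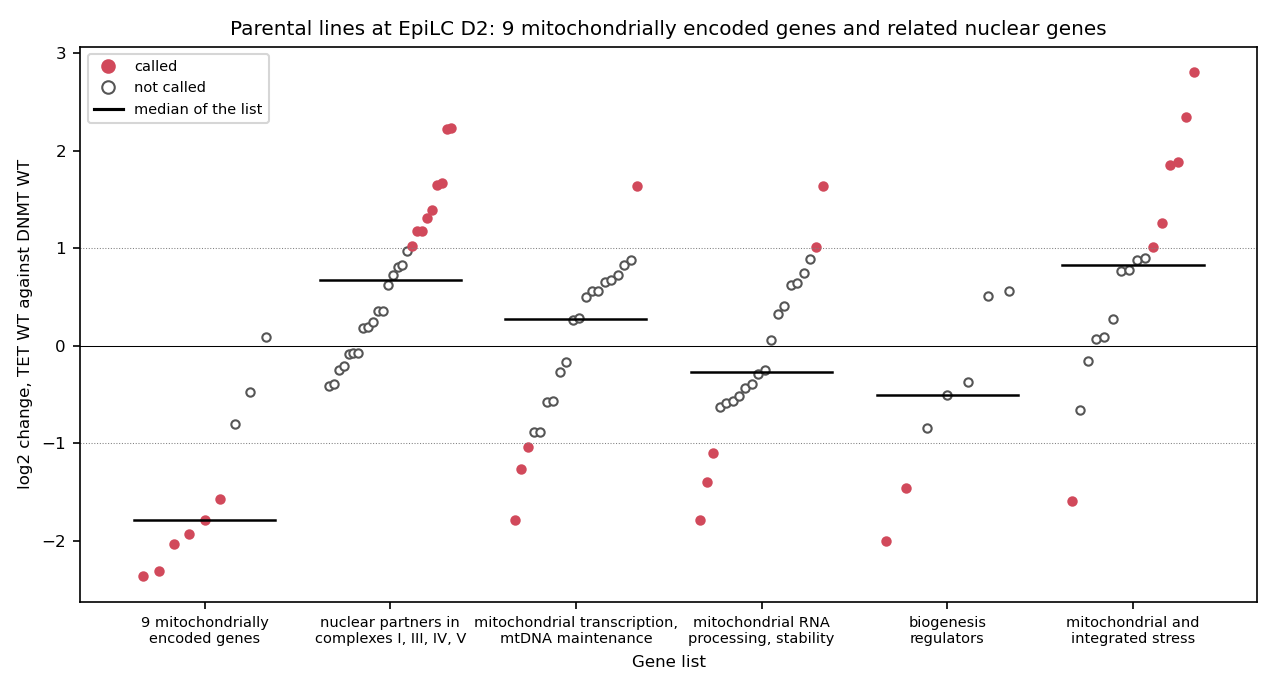
log2 change between TET WT and DNMT WT at EpiLC D2 for the 9 mitochondrial genes and 5 lists of nuclear genes; each point is a gene, filled where called, and the bar is the median of the list. The mitochondrial genes have a median of -1.79 and the nuclear partners of the same complexes one of 0.68.

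Between TET KO and TET WT at EpiLC D2, where 7 of the 9 were higher, 0 of the 26 nuclear subunits and 0 of the 20 transcription and maintenance genes were called, beside 4.8% of all genes higher and 3.1% lower. Polrmt was at 2.97 ± 0.76 and 2.33 ± 0.28 RPKM (SD, n = 3 each). Of 20 processing genes Fastk was higher (1.08) and Pde12, a nuclease that shortens mitochondrial poly(A) tails, lower (-1.10). Ppargc1b was higher (1.26), from 0.189 ± 0.030 to 1.2 ± 0.41 RPKM (n = 3 each). Of the stress list Ddit3 was higher (1.83) and Gdf15 lower (-1.61). mt-Nd6 was higher as well (1.15, adjusted p = 0.0309, limma). At EB D8 against ESC D0 the 9 had calls only upward (none in DNMT WT). The nuclear subunits had 0 higher in each line. Of all genes, 20.3% were called higher in TET WT, 18.4% in TET KO and 16.8% in DNMT KO, and 37.7% in either direction in DNMT WT. Lower were 8 of the 26 in TET WT, 10 in TET KO, 7 in DNMT WT and 2 in DNMT KO. In the same order, 12.4%, 9.67%, 14.4% and 6.92% of all genes were called lower, so the 2 in DNMT KO are near the share of all genes. Cox5a fell by 1.96 on the log2 scale in TET WT and by 1.57 in TET KO.

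Over the 28 group means of log2(RPKM + 0.5), the tested nuclear genes most like the mean of the 9 were Lime1 (Pearson's r = 0.886), Plxna1 (0.875), Proser1 (0.860), Mysm1 (0.859) and Chd6 (0.856). Of the 9 themselves, the 6 well-counted genes gave 0.951 to 0.987, mt-Co2 0.914, mt-Atp6 0.649 and mt-Co3 0.573 with a mean they are part of. The groups share lines and conditions, and the values are descriptions without a test.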

How the data were processed

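RNA-seq of 79 libraries in 28 groups was used as deposited: the authors' gene table of log2 RPKM. The submitters' processing notes name HISAT2 2.1.0, Trim Galore 0.6.1, cutadapt 1.18 and the build GRCm38. Per the labels' protocols, libraries were stranded and captured with oligo-dT. For the counting tool, its annotation and reads with several alignments, nothing is given in the sources used here. The table holds 35269 entries, of which 39 repeated a gene identifier and were left out (the entry with the highest mean was kept). Each column was matched to its sample by name, except that 1 column of DNMT WT at EpiLC D1 is named replicate 3, while the samples of that group are titled 1 and 2. It was used as a library of the group without a replicate number and left out of the replicate block.

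Values were returned to RPKM. Entries without a read hold a floor worth 0.9 reads, and with merged exon lengths of GENCODE M21 this floor gave each library's depth: 7.76 to 13.9 M reads, with a median of 11.2 M. Of the values of up to 20 reads, 96.9% came out within 0.1 of a whole read. Intervals for counting error are not given, and 1 read on mt-Co3 was worth 0.0919 to 0.164 RPKM.

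limma 3.58.1 (R 4.3.3) was fitted to log2(RPKM + 0.5) with mean-variance trend and robust moderation, over the 4 lines at a condition and, for the course, at ESC D0. Tested were the 15267 genes that reached 1 RPKM in 2 libraries or more, with Benjamini-Hochberg adjustment over all of them. The 64 comparisons cover knockout against parental line, the parental lines, condition against ESC D0, and differences between these effects. The fits were tested on simulated data. Transcripts of GENCODE M21 were compared with BLAST+ 2.17.0 (141730 nuclear transcripts, alignments of at least 60 bases); sequences are those of these transcripts. Python 3.11.15, pandas 2.3.3 and matplotlib 3.10.9 were used for summaries and figures.

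All 9 members are described; of the other lists, up to 4 called genes with the largest change are named, and the 5 nuclear genes most like the members. The lists are nuclear partners in complexes I, III, IV and V, transcription and mtDNA maintenance, RNA processing, biogenesis regulators, stress response, other mitochondrial genes, and nuclear mitochondrial-like copies, the last of which is not analysed here. The members and lists were chosen with earlier results of these data known. Gene length, GC content and the scaling without Gm42418 were added after seeing the data. Alternatives were another pseudocount, filter, scaling or fit, a replicate block, and each library left out in turn.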

Additional observations from a re-analysis of the deposited data

Results flagged for a closer look

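These results are differences between effects, each tested as an interaction in limma with adjustment over all genes. The DNMT KO effect minus the TET KO effect at EpiLC D2 was called in 6 of the 9 genes: mt-Nd1 at -1.80, mt-Nd2 at -1.92, mt-Nd4 at -1.86, mt-Nd5 at -1.72, mt-Cytb at -1.43 and mt-Co1 at -1.61, with adjusted p of 0.000629 to 0.00385, beside 5.97% of all genes called lower. The same difference at EB D2 was called in 3 genes, mt-Co2 (1.80), mt-Co3 (1.4) and mt-Atp6 (1.46), beside 4.45% of all genes called higher. These rest on few reads, and 0 to 2 were called with a library left out in turn, 0 of them without replicate 1 of TET KO.

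The TET KO effect at EpiLC D2 minus that at ESC D0 was called in 6 genes, from 1.87 for mt-Cytb to 2.26 for mt-Nd5, beside 3.22% of all genes called higher. At EB D4 that difference was called in 3 genes, mt-Nd1 (1.10), mt-Nd2 (1.0) and mt-Nd5 (1.04), beside 6.54% of all genes called higher. Without replicate 2 of TET WT at EB D4, the library with 12.2% of its reads on Gm42418, 0 were called, and 1 was without replicate 1 of TET WT or replicate 2 of TET KO at EB D4 or replicate 1 of TET KO at ESC D0. At EB D6 it was called in 4 genes, mt-Nd1 (1.12), mt-Nd2 (1.19), mt-Nd4 (1.15) and mt-Cytb (1.31), beside 4.29%.

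The DNMT KO effect at EB D6 minus that at ESC D0 was called in all 9 genes, beside 12.1% of all genes called higher. It was called in 5 of them without replicate 1 of DNMT WT at ESC D0. The 6 well-counted genes stood at 1.03 (mt-Nd2) to 1.60. The value of mt-Atp6, 2.33, rests on few reads, as do those of mt-Co2 and mt-Co3. At EB D8 it was called in 1 gene, mt-Co1 (1.04, beside 10.8%).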

How the results depend on the processing

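The cause of the changes given here was not tested unless stated. Of 9817 values of single genes under the alternatives, 9519 kept their side of the threshold, 160 lost a call, 138 gained one and 0 turned a called direction. Of the 295 uncalled changes of sign, 136 were in mt-Co2, mt-Co3 and mt-Atp6. Counts of the 9 genes called that moved by more than 1.5 times are given with the count as reported first. With the 5 RPKM filter, which leaves out sparse genes, TET WT against DNMT WT went from 1 to 0 at EB D2, from 1 to 0 at EB D4 and from 2 to 0 at EB D6, DNMT KO against DNMT WT at EB D6 from 1 to 0, and the DNMT KO effect minus the TET KO effect at EB D2 from 3 to 1. With no filter the last went to 0, and the parental lines at EB D6 to 1. Without a pseudocount, and with one of 0.1 RPKM, DNMT KO against DNMT WT went from 0 to 1 at EB D2 and from 1 to 3 at EB D6, the parental lines at EB D2 from 1 to 2, and the difference of the effects at EB D6 from 0 to 1. With a pseudocount of 1 RPKM the parental lines went to 0 at EB D2 and 1 at EB D6, and DNMT KO against DNMT WT at EB D6 to 0. With only the groups compared in the fit, the parental lines at EB D4 went from 1 to 2. Without the Gm42418 reads, a scaling chosen after seeing the data, the parental lines at EB D4 gave 2, and the TET KO effect at EB D4 minus that at ESC D0 went from 3 to 1.

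With libraries centred on their median, TET KO against TET WT at EpiLC D1 went from 1 to 0, the parental lines at EB D4 to 2, the difference of the effects at EB D4 from 0 to 1, and the TET KO effect at EB D4 minus ESC D0 from 3 to 0. Against ESC D0, centring moved TET WT at EpiLC D1 from 2 to 1, at EpiLC D2 from 8 to 5 and at EB D6 from 6 to 3, TET KO at EpiLC D1 from 6 to 2 and at EpiLC D2 from 0 to 4, DNMT WT at EB D8 from 0 to 1, and DNMT KO at EB D2 from 4 to 2 and at EB D8 from 4 to 1. With quantile normalization, DNMT KO against DNMT WT gave 1 at ESC D0 and 0 at EB D6, TET KO against TET WT gave 2 at EpiLC D1 and 1 at EB D2, and the parental lines gave 2 at EB D2 and 2 at EB D4. The difference of the effects at EpiLC D1 gave 1. Against ESC D0, TET WT at EpiLC D1 gave 5, DNMT WT gave 1 at EpiLC D2 and 1 at EB D8, and DNMT KO gave 2 at EB D2 and 4 at EB D6. The DNMT KO effect minus that at ESC D0 gave 1 at EpiLC D1, 1 at EpiLC D2 and 1 at EB D2, and the TET KO effect gave 0 at EB D4 and 1 at EB D8.

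The replicate numbers did not pair the libraries: of 36 pairs, 4 had a correlation of deviations over 0.1 (median 0.00469, range -0.241 to 0.289). With the number as a replicate block, the difference of the effects went from 0 to 4 at EpiLC D1 and from 3 to 1 at EB D2, TET KO against TET WT at EB D2 from 0 to 1, and DNMT WT at EB D8 against ESC D0 from 0 to 1.

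With each library left out in turn, where a lone library is assumed to vary like the others, these counts ranged as follows. The parental lines gave 0 to 5 at ESC D0 (0 without DNMT WT replicate 1, 1 without TET WT replicate 1) and 1 to 2 at EB D2. TET KO against TET WT gave 0 to 1 at EpiLC D1 and 0 to 1 at EB D2, and DNMT KO against DNMT WT 0 to 1 at EB D2, 0 to 1 at EB D4 and 1 to 3 at EB D6. The difference of the effects gave 0 to 2 at EpiLC D1, 0 to 2 at EB D2, 0 to 1 at EB D4 and 0 to 1 at EB D6. The TET KO effect minus that at ESC D0 gave 0 to 5 at EB D4 and 2 to 5 at EB D6, and the DNMT KO effect 0 to 1 at EB D2, 5 to 9 at EB D6 and 0 to 1 at EB D8. Against ESC D0, TET WT gave 2 to 4 at EpiLC D1, TET KO 0 to 2 at EpiLC D2, DNMT KO 0 to 5 at EpiLC D1 and 2 to 4 at EB D2, and DNMT WT 0 to 3 at EB D4 and 0 to 1 at EpiLC D1, EpiLC D2, EB D2, EB D6 and EB D8. The counts at EpiLC D2 stayed at 6 to 8 for TET KO against TET WT and 6 to 7 for the parental lines. Depth limits mt-Co2, mt-Co3 and mt-Atp6, whose values are single reads in many libraries.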

Other observations

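mt-Nd3, a small subunit of complex I that is not among the 9, held 2 to 22 reads in each of the 20 TET KO libraries (0.492 to 5.42 RPKM), while 36 of the 59 libraries of the other lines had none and the highest of them stood at 1.43 RPKM. Against TET WT, TET KO was called higher in it at EpiLC D1 (1.93), EB D2 (1.71), EB D6 (2.42) and EB D8 (1.26). At ESC D0 it held 5, 3 and 10 reads in TET KO against 1, 5 and 5 in TET WT, which overlap. At EB D4 it held 4, 13 and 6 against 3, 3 and 5, which also overlap, and at EpiLC D2 8, 6 and 6 against 5, 5 and 0. Of all genes, 7.41%, 5.02% and 9.98% were called in either direction at EB D2, D6 and D8. No such share is given for EpiLC D1. Its closest nuclear copy, Gm28438, matches it at 99.7% over 345 bases with 1 difference. The pattern was noticed in the values, so the calls are no test of it. They rest on few reads, and mt-Nd3 reached 1 RPKM in 24 of 79 libraries.

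mt-Atp8 and mt-Atp6 overlap on the mitochondrial genome (MT 7766-7969 and 7927-8607). The libraries with the most reads on mt-Atp8 are given with their reads on mt-Atp6 second. They were DNMT KO at EB D6 replicate 1 (53 and 34), DNMT KO at EpiLC D1 replicate 1 (35 and 67) and TET WT at ESC D0 replicate 3 (26 and 22). Other libraries had more mt-Atp6 reads than the last of these and few on mt-Atp8. These were TET WT at EB D4 replicate 1 (3 and 24), TET KO at EB D6 replicate 3 (5 and 23) and DNMT WT at ESC D0 replicate 2 (1 and 23). mt-Atp8 was called higher in DNMT KO at EB D6 than in DNMT WT (2.45, adjusted p = 0.0115, limma), beside 11.1% of all genes called higher. It held 53, 3 and 4 reads in DNMT KO against 0, 0 and 1, so most of its reads lay in 1 library. mt-Nd6 was called higher than at ESC D0 at EB D2, EB D4 and EB D6 in every line (1.52 to 3.29). On these days 7.87% to 16.0% of all genes were called higher in TET WT, 7.9% to 14.9% in TET KO and 11.4% to 15.1% in DNMT KO. In DNMT WT 19.7% to 32.1% were called in either direction. At ESC D0 the DNMT lines held only 37 to 61 reads per library on mt-Nd6.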
